A study of Mus musculus with 38 samples.

Results

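Proteasome genes were examined on arrays of liver and whole brain from mice of the inbred strain C57BL/6J that had received haloperidol, delivered by slow-release pellet, or placebo for 30 days. Haloperidol is an antipsychotic drug that blocks dopamine D2 receptors. The 4 groups were haloperidol brain (n = 10 arrays), placebo brain (n = 10), haloperidol liver (n = 9) and placebo liver (n = 9), and the sources used here give neither age nor sex of the mice. The genes were chosen by symbol: every gene whose symbol begins with Psma, Psmb, Psmc, Psmd, Psme, Psmf or Psmg and that had a probe with 1 gene symbol, which gave 49 of the 18820 genes so measured. A gene with several such probes was represented by its brightest one, taken over the mean of all 38 arrays. Of the 49, 47 encode a subunit, activator, inhibitor or assembly chaperone of the proteasome. The other two, Psmc3ip and Psme3ip1, encode proteins named for binding a proteasome protein and were counted apart; neither passed the test in a tissue where it was tested. The 47 comprised 7 Psma genes, 11 Psmb, 6 Psmc, 14 Psmd and 9 Psme, Psmf or Psmg genes. The probe for Psma4 carried several symbols, so Psma4 was not analysed here.

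The proteasome is the large protease of the cytosol and nucleus that degrades proteins tagged with ubiquitin. Its core particle is a barrel of alpha rings (Psma genes), which form the gate, around beta rings (Psmb genes), which hold the catalytic sites. A regulatory particle caps the barrel: its ATPases (Psmc genes) unfold the substrate and thread it inward, and its lid and the rest of its base (Psmd genes) bind and remove ubiquitin. Other caps open the gate without ATP, namely the Psme1 and Psme2 proteins, which join in 1 ring, and the Psme3 and Psme4 proteins, which are mostly nuclear. In cells exposed to interferon, the catalytic subunits Psmb5, Psmb6 and Psmb7 are replaced by Psmb8, Psmb9 and Psmb10 to form the immunoproteasome, which favours peptides for antigen presentation. The transcription factors Nfe2l1 and Nfe2l2, which bind antioxidant response elements, are known regulators of proteasome genes.

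Sequence upstream of the genes came from RefSeq (GRCm38.p6) as windows of 300 bases, 250 before and 50 after each gene's annotated start, and 39 of the 47 genes had at least 1 window. Each of 3 motifs was searched on both strands, without regard to overlap between motifs. The antioxidant response core TGACNNNGC was in 6 of the 39 genes (15.4%), against 14% of all 27025 genes with a window. The core of the interferon-stimulated response element, spelled GAAA, any 2 bases and GAAA again, was in 5 of 39 (12.8%), against 3.99% of all. The CCAAT box was in 14 of 39 (35.9%), against 41.1% of all. Among the 25 of these genes that were higher in haloperidol brain, 4 held the antioxidant response core, 4 the interferon-stimulated core and 10 the CCAAT box. Among the other 14 genes 2, 1 and 4 did. Those 14 included Psmb8 and Psmb11, which were not tested in brain, and Psme3 and Psme4, which were lower there. A match is a description of the letters, not of a binding site.

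Windows are printed for 5 genes that the results below return to, 5′ to 3′ on the gene's strand, with motif matches in capitals. The activator gene Psme1 (chr14:55578244-55578543, plus strand) rose in brain and held the interferon-stimulated core on the opposite strand, from base 10 counting the start as base 1. Psme4 (chr11:30771525-30771824, plus strand) fell in brain and held the antioxidant core on the opposite strand. The catalytic genes Psmb5 (chr14:54617946-54618245, minus strand) and Psmb6 (chr11:70525107-70525406, plus strand) rose and held the same core on the gene's own strand. Psma7 (chr2:180042415-180042714, minus strand), a gate subunit with the largest change of the 44 genes tested in brain, held a CCAAT box.
Psme1: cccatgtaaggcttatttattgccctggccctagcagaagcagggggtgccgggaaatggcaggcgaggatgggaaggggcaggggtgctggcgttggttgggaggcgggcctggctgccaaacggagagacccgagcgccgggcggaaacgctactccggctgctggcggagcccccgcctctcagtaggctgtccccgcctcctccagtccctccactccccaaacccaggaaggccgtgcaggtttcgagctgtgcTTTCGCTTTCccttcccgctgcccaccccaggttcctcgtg
Psme4: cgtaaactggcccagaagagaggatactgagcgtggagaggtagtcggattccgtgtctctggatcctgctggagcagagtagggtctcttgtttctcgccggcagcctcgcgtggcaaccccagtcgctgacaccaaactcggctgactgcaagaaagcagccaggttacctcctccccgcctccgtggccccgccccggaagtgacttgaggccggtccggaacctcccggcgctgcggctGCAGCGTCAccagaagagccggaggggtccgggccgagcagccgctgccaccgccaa
Psmb5: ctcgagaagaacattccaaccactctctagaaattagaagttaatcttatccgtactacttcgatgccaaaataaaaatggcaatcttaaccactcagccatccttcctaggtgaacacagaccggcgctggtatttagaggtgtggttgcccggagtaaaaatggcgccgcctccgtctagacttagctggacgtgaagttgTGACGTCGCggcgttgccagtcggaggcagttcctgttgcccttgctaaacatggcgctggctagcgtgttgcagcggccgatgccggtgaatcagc
Psmb6: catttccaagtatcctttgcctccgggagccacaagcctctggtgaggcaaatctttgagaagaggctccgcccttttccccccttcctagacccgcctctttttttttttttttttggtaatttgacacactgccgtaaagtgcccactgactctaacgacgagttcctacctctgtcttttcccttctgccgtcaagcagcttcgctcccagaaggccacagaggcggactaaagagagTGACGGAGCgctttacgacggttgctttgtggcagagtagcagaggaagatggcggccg
Psma7: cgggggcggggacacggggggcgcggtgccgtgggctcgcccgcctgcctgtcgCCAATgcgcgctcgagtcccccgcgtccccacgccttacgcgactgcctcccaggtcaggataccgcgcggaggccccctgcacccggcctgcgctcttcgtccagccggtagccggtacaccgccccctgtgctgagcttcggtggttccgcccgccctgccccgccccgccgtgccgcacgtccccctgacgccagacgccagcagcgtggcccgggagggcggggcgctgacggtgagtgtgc

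Values are log2 expression values that the authors normalized, changes are haloperidol minus placebo on that scale, and errors beside means are SD. The synaptic gene Snap25 averaged 12.79 ± 0.047 in haloperidol brain and 12.80 ± 0.062 in placebo brain (n = 10 each), and the albumin gene Alb averaged 13.22 ± 0.037 in haloperidol liver and 13.18 ± 0.029 in placebo liver (n = 9 each), so both tissues carried their defining transcripts. Some brain arrays stood apart. Alb was at 11.11 in haloperidol brain 4T (arrays are called by the tags of their titles), against 3.93 to 4.51 in the other 19 brain arrays, and the growth hormone gene Gh reached 10.45 in haloperidol brain (1R) and 11.49 in placebo brain (1L), against medians of 5.22 and 5.11. The prolactin gene Prl reached 8.95 in haloperidol brain (2N) and 9.03 in placebo brain (1L), against medians of 4.17 and 3.95. Haloperidol brain 4N also stood apart in earlier results of these data. Among brain arrays it had the lowest median of all probes, 6.08, and the highest mean proteasome deviation from the placebo mean, 0.64. Leaving it out was therefore not a neutral choice for the proteasome counts. Brain counts and calls that change without 4N, 4T and 1L are given below. Haloperidol 1R and 2N stayed in the fits without those arrays. The median of all probes of an array averaged 6.19 ± 0.072 in haloperidol brain and 6.33 ± 0.044 in placebo brain (n = 10 each), and 4.89 ± 0.090 in haloperidol liver and 4.80 ± 0.082 in placebo liver (n = 9 each). The tissues appeared to have been normalized apart, so levels were compared within a tissue.

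In brain most proteasome genes were higher with haloperidol. Of the 44 of 47 that passed the filter on low values, 31 were higher, 2 were lower and 11 did not pass (limma, adjusted p under 0.05). Over all 12547 genes tested in brain, 15.2% were called higher and 15.2% lower, 30.4% in all. The median change of the 44 genes was 0.32, against -0.02 over all genes tested. Among the Psma, Psmb, Psmc and Psmd classes, the alpha genes changed most, with a median of 0.57. The Psmd class, which also holds assembly chaperone genes, changed least, with a median of 0.21. The activator genes Psme3 and Psme4 were the 2 that fell. In bulk tissue, more cells of a type and more RNA per cell cannot be told apart. With the array median as a covariate, 0 of the 44 genes and 0 of all genes tested passed limma's test, 4 of the 44 were higher at an unadjusted p under 0.05, and the median change of the 44 was 0.09. Array medians ran between 6.08 and 6.33 in haloperidol brain and between 6.27 and 6.40 in placebo brain. Of the haloperidol arrays only 1R, at 6.33, reached the placebo range, so this fit can hardly separate treatment from array median. Without haloperidol 4N, 4T and placebo 1L, 23 of the 44 were higher and 2 lower, and Psmb5, Psmc3, Psmc4, Psmc5, Psmd4, Psmd7, Psmd12 and Psmg2 lost their calls. Quantile normalization within the tissue gave 30 higher and 3 lower: Psma3, Psmb5 and Psmc4 lost their calls, and Psmb9, Psmd2 and Psmg3 gained one. Subtraction of array medians gave 37 higher and 1 lower: Psme3 lost its call, and Psmb9, Psmc1, Psmd1, Psmd5, Psmd9 and Psmg3 gained one.

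Psma8, Psmb8 and Psmb11, with brain means of 4.15, 4.82 and 4.84, fell below the brain limit of 5.52 on the mean of a gene and were not tested there. Psma8 is known from the testis and Psmb11 from the thymus. Psmg3 lay just inside the limit, with a haloperidol mean of 5.62 ± 0.26 and a placebo mean of 5.47 ± 0.17 (n = 10 each). In 0 of the 44 genes did the haloperidol and placebo arrays of brain separate completely, in either direction. Over all genes tested, complete separation occurred in 0.0399% upward and in 0.0638% downward.

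The brain effect differed between arrays. Averaged over the 44 genes as a deviation from the placebo mean, the haloperidol brain arrays ranged between -0.03 and 0.64 with a median of 0.33, and the placebo brain arrays between -0.13 and 0.15 with a median of 0.0035. The haloperidol arrays 4N, 3B and 3R had the highest values, 0.64, 0.57 and 0.46, while 4L at 0.03 and 1R at -0.03 lay inside the placebo range, as did 2N at 0.15 (0.145 against 0.148 in placebo 4B). In 7 of 10 haloperidol arrays the mean deviation exceeded that of every placebo array. On haloperidol 1R, 16 of the 44 genes were above the placebo mean, and on 4L 21 were, against 35 to 41 of 44 on the other 8 haloperidol arrays. On placebo arrays the number ranged between 7 and 39.

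**Figure D1:**
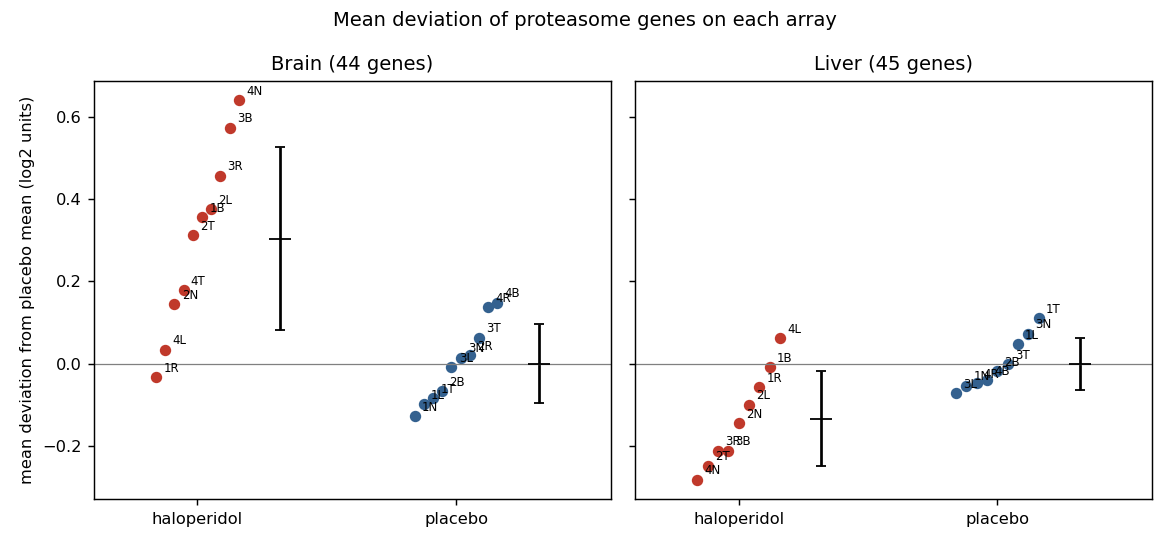
Mean deviation of the proteasome genes from the placebo mean of the tissue (y axis, log2 units) on each array, for 44 genes in brain (left panel) and 45 in liver (right panel), with haloperidol left of placebo. Points are arrays, sorted within their group and labelled with their title tags, and bars are the mean ± SD: haloperidol brain arrays spread between -0.03 and 0.64, and haloperidol liver arrays between -0.28 and 0.06.

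Marker genes of some other cell types moved in brain with the same treatment. Of 9 microglial markers, 5 (55.6%) were higher with haloperidol (Aif1, P2ry12, C1qa, C1qb and Tyrobp) and 0 lower, against 15.2% each way over all brain genes. The mean level over this list ranged between 7.75 and 8.35 in haloperidol arrays and between 7.39 and 7.96 in placebo arrays. Alas2, an enzyme of haem synthesis and the erythroid marker measured here of 3 listed, ranged between 7.47 and 8.13 in haloperidol brain and between 6.31 and 7.30 in placebo brain, which do not overlap. Of the other lists, 1 of 5 endothelial and 1 of 4 choroid plexus markers were higher, which is 1 gene each and near the share of all genes. Of 4 neuronal, 4 astrocytic and 2 oligodendrocytic markers, 0 passed (limma, adjusted p under 0.05). All 4 neuronal markers had a change below 0, and 2 were lower at an unadjusted p under 0.05. Such a p was found for 44.0% of all brain genes with both directions counted together, so the share of lower genes alone was smaller. The part of these cell types in the proteasome result was not tested.

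All 6 alpha genes tested were higher in haloperidol brain. Psma7 had a lowest, median and highest value of 8.85, 9.82 and 10.47 in haloperidol brain, against 8.72, 8.96 and 9.40 in placebo brain. The groups overlapped, with 6 of 10 haloperidol arrays above every placebo array and 1R below the placebo mean. The change was 0.73 (SE 0.19, limma adjusted p = 0.0078), or 1.66-fold. Psma2 had the smallest error of the alpha genes: it spanned 8.71 to 9.45 with a median of 9.08 in haloperidol brain, and 8.46 to 8.83 with a median of 8.60 in placebo brain. In 9 of 10 haloperidol arrays the level was above every placebo array, and the change of 0.49 (SE 0.077) had the smallest adjusted p of all the proteasome genes, 0.0027 by limma. Psma5 was at 8.67, 9.38 and 9.74 in haloperidol brain (lowest, median, highest) and at 8.20, 8.54 and 9.30 in placebo brain, and rose by 0.66 (SE 0.14). All 10 haloperidol arrays were above its placebo mean, although placebo 4B reached 9.30. Psma1 rose by 0.42 (SE 0.11), with 8 of 10 haloperidol arrays above the placebo mean, and the other alpha genes, Psma3 and Psma6, rose by 0.36 and 0.65. With quantile normalization, the change of Psma3 was 0.27 and did not pass (limma adjusted p = 0.052).

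Of the 9 beta genes tested in brain, 8 were higher and Psmb9 did not pass. The constitutive catalytic genes rose together. Psmb6, the gene of the caspase-like subunit, was at 9.62, 10.30 and 10.79 in haloperidol brain (lowest, median, highest) and at 9.53, 9.71 and 9.95 in placebo brain, a change of 0.51 (SE 0.13, limma adjusted p = 0.0076). On 6 of 10 haloperidol arrays it exceeded every placebo array, and on 2 it was below the placebo mean. Psmb7, the trypsin-like subunit, was at 9.78, 10.11 and 10.38 in haloperidol brain and at 9.60, 9.78 and 10.09 in placebo brain, and rose by 0.33 (SE 0.077). Its placebo arrays reached into the haloperidol range, and 9 of 10 haloperidol arrays were above the placebo mean. Psmb5, the chymotrypsin-like subunit whose window is printed above, was at 11.56, 12.10 and 12.42 in haloperidol brain and at 11.39, 11.75 and 11.94 in placebo brain, and rose by 0.31 (SE 0.10, limma adjusted p = 0.025). This call was lost without haloperidol 4N, 4T and placebo 1L, where the change was 0.27 (limma adjusted p = 0.064), and when haloperidol 3B, haloperidol 4N or placebo 1N was left out alone, where adjusted p reached 0.054. It was also lost with quantile normalization (0.22, limma adjusted p = 0.053). Among the non-catalytic beta genes, Psmb1 rose by 0.53 (SE 0.12), with 8 of 10 haloperidol arrays above every placebo array, and Psmb2, Psmb3 and Psmb4 rose by 0.29, 0.33 and 0.34.

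Of the immunoproteasome genes, Psmb10 was higher in haloperidol brain, Psmb9 did not pass and Psmb8 was not tested. Whether their changes differed from each other was not tested. Psmb10, the counterpart of Psmb7, was at 8.04, 8.70 and 9.17 in haloperidol brain and at 7.93, 8.14 and 8.65 in placebo brain, and rose by 0.48 (SE 0.12, limma adjusted p = 0.0075). In all, 9 of its 10 haloperidol arrays were above the placebo mean. Psmb9, the counterpart of Psmb6, was at 6.11, 6.39 and 6.76 in haloperidol brain and at 5.89, 6.36 and 6.58 in placebo brain. Its change of 0.15 (95% interval -0.04 to 0.35) did not pass (limma adjusted p = 0.22), although it did with the array medians subtracted (0.29, adjusted p = 0.039) and with quantile normalization (0.28, adjusted p = 0.041). The change of Psmb9 was 0.08 without haloperidol 4N, 4T and placebo 1L (limma adjusted p = 0.56) and -0.08 with the array median as a covariate (limma adjusted p = 0.94). Psmb8, the counterpart of Psmb5, was too dim to test, at 4.58, 4.85 and 5.33 in haloperidol brain and at 4.39, 4.77 and 5.12 in placebo brain. Of 12 genes of interferon response and antigen processing tested in brain, 1 was higher (Gbp2, a guanylate-binding protein induced by interferon, 0.27) and 1 lower (Nlrc5, an activator of MHC class I genes, -0.30), which is 8.33% each way, against 15.2% each way over all brain genes. The peptide transporter gene Tap1 changed by -0.05 and the light chain gene B2m by 0.05, and neither passed.

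**Figure D2:**
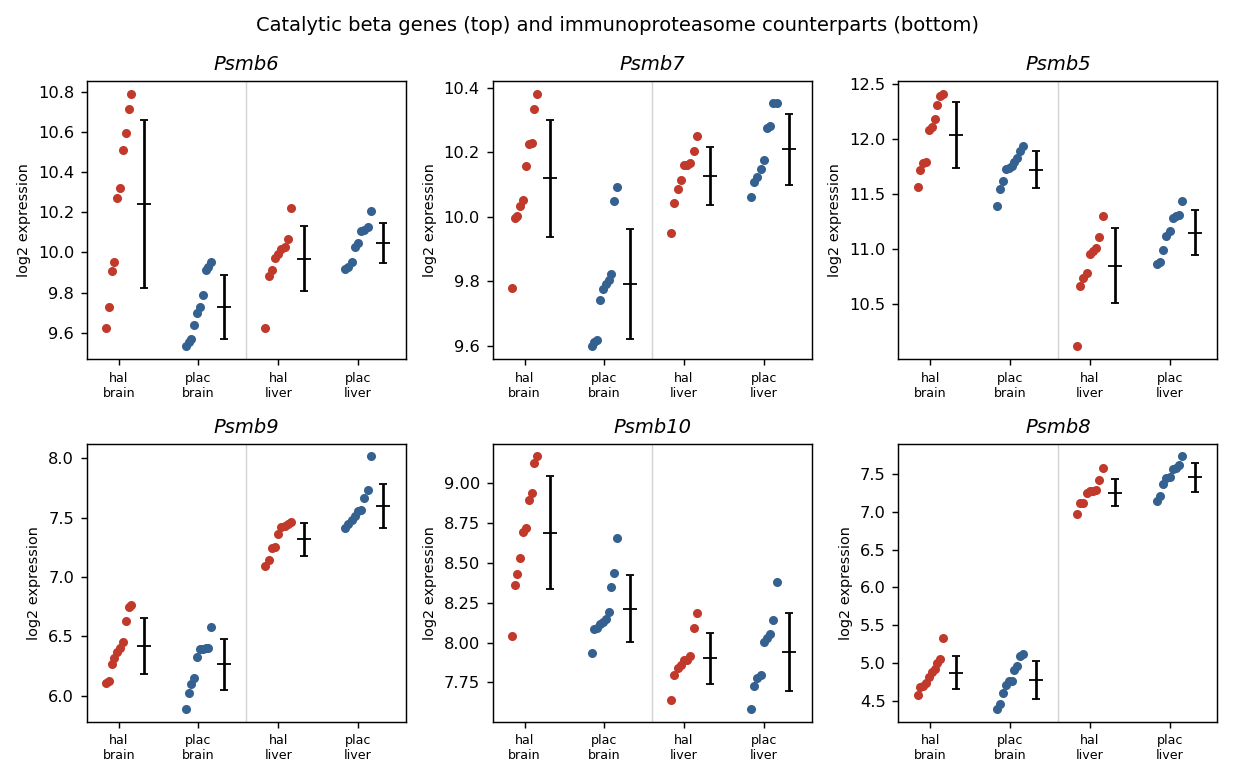
Log2 expression (y axis) of the catalytic beta genes Psmb6, Psmb7 and Psmb5 (top row) and, below each, its immunoproteasome counterpart Psmb9, Psmb10 or Psmb8, by array, with the groups in the order haloperidol brain, placebo brain, haloperidol liver, placebo liver. Points are arrays sorted within their group and bars are mean ± SD: Psmb6, Psmb7, Psmb5 and Psmb10 rose in haloperidol brain, and brain and liver levels appeared to have been normalized apart.

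Of the 6 ATPase genes, 5 were higher in haloperidol brain, with a median change of 0.23 over the class. Psmc6 changed most: it was at 9.33, 9.96 and 10.39 in haloperidol brain and at 9.26, 9.43 and 9.62 in placebo brain, and rose by 0.43 (SE 0.12, limma adjusted p = 0.011). Of the 10 haloperidol arrays, 6 lay above every placebo array and 2 below the placebo mean. Psmc3 was at 8.91, 9.35 and 9.75 in haloperidol brain and at 8.77, 8.95 and 9.29 in placebo brain, and rose by 0.32 (SE 0.097). Psmc2 rose by 0.25 (SE 0.072) and Psmc5 by 0.21. Psmc4 rose by 0.17 (SE 0.060, limma adjusted p = 0.038), a call that was lost in 9 of the 20 fits that left out 1 brain array, where its adjusted p reached 0.077. It was also lost with quantile normalization (0.13, limma adjusted p = 0.058), with no filter on dim genes (limma adjusted p = 0.059) and with the tag letter as a block (limma adjusted p = 0.055). Psmc1 changed by 0.14 and did not pass (limma adjusted p = 0.077). Without haloperidol 4N, 4T and placebo 1L, 2 of the 6 ATPase genes passed, Psmc2 and Psmc6.

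The lid and base genes divided. Of 14, 8 were higher in haloperidol brain: Psmd4, a ubiquitin receptor, Psmd6, Psmd7, Psmd8, Psmd10, Psmd12, Psmd13 and Psmd14, the deubiquitinase of the lid. Psmd10, the gene of gankyrin, a chaperone in the assembly of the base, was at 8.37, 9.48 and 10.09 in haloperidol brain and at 8.16, 8.64 and 8.87 in placebo brain. The level was above every placebo array on 8 of 10 haloperidol arrays while 4L and 1R lay below the placebo mean, and the change was 0.72 (SE 0.19, limma adjusted p = 0.0090). Psmd8, a lid subunit, was at 9.34, 9.61 and 9.96 in haloperidol brain and at 8.87, 9.22 and 9.54 in placebo brain. All 10 of its haloperidol arrays were above the placebo mean, and it rose by 0.40 (SE 0.085, limma adjusted p = 0.0044). Psmd14 rose by 0.53 (SE 0.15), with 7 of 10 haloperidol arrays above the placebo mean, and Psmd6 by 0.34 (SE 0.090).

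The 6 lid and base genes that did not pass in brain included the large base scaffolds. Psmd2, a scaffold of the base, was at 10.93, 11.11 and 11.20 in haloperidol brain and at 10.99, 11.12 and 11.17 in placebo brain, a change of -0.03 (95% interval -0.12 to 0.06). Psmd1, the other large base subunit, was at 10.75, 10.88 and 11.09 in haloperidol brain and at 10.63, 10.83 and 10.99 in placebo brain, a change of 0.04 (95% interval -0.07 to 0.15). For both genes, the groups covered nearly the same range. The lid genes Psmd3 and Psmd11 changed by -0.02 and 0.03, and the assembly chaperone genes Psmd5 and Psmd9 by 0.15 and 0.14. Quantile normalization within the tissue made Psmd2 lower (-0.13, limma adjusted p = 0.043), and subtraction of array medians made Psmd5 higher (0.29, limma adjusted p = 0.025). Without haloperidol 4N, 4T and placebo 1L, 5 of the 14 genes passed, namely Psmd6, Psmd8, Psmd10, Psmd13 and Psmd14.

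The 4 activator genes moved in opposite directions in brain. Psme1 was at 8.04, 8.59 and 9.22 in haloperidol brain and at 7.47, 7.98 and 8.17 in placebo brain, and 9 of 10 haloperidol arrays lay above every placebo array. It rose by 0.63 (SE 0.12, limma adjusted p = 0.0042), or 1.55-fold. Its partner Psme2, which lies close to it on chromosome 14, was at 8.55, 9.16 and 9.58 in haloperidol brain and at 8.14, 8.50 and 8.83 in placebo brain. All 10 haloperidol arrays were above the placebo mean, and Psme2 rose by 0.64 (SE 0.12, limma adjusted p = 0.0042). A further Psme2 probe carried several gene symbols and was not used.

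Psme4, the activator that binds acetylated histones, went the other way. It was at 8.94, 9.14 and 9.51 in haloperidol brain and at 9.39, 9.48 and 9.81 in placebo brain, with 9 of 10 haloperidol arrays below every placebo array and only 1R inside the placebo range. It fell by 0.34 on the log2 scale (SE 0.069, limma adjusted p = 0.0043), to 0.789 of the placebo level. Psme3 was at 9.98, 10.15 and 10.33 in haloperidol brain and at 10.21, 10.34 and 10.45 in placebo brain. All 10 haloperidol arrays lay below its placebo mean, and it fell by 0.17 on the log2 scale (SE 0.049, limma adjusted p = 0.014). Subtraction of array medians, which moved the median change of all brain genes to 0.12, ended the call of Psme3 (-0.04, limma adjusted p = 0.64) and kept that of Psme4 (-0.21, limma adjusted p = 0.0077). A fit of all 38 arrays also ended the call of Psme3 (limma adjusted p = 0.059). Without haloperidol 4N, 4T and placebo 1L all 4 activator genes kept their calls.

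**Figure D3:**
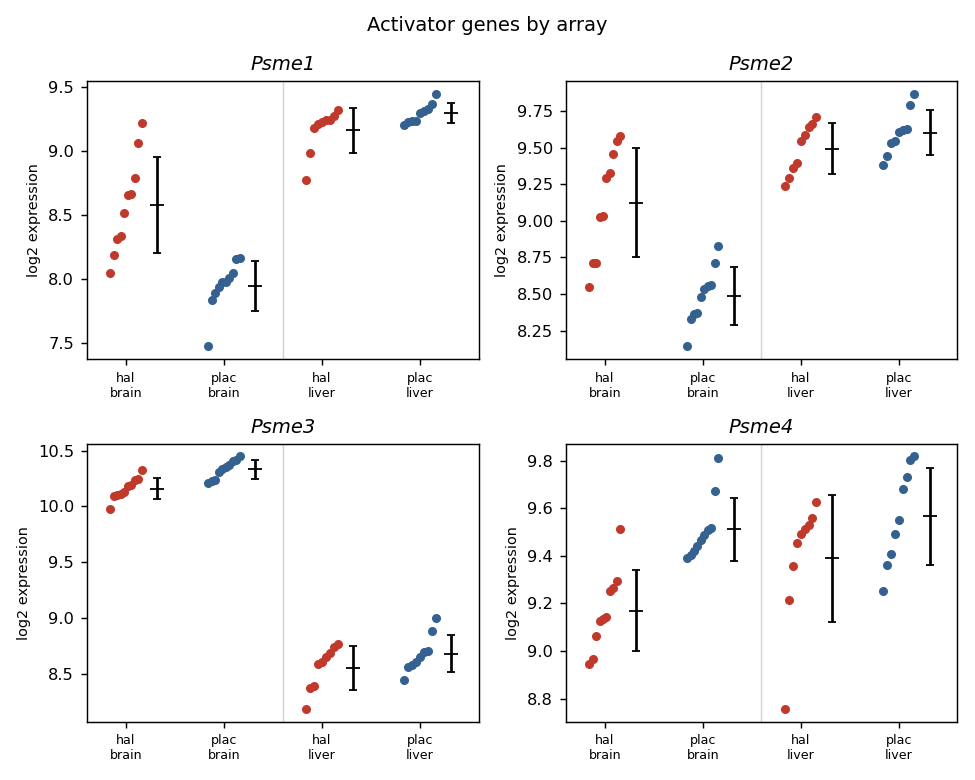
Log2 expression (y axis) of the activator genes Psme1 to Psme4 by array, with the groups in the order haloperidol brain, placebo brain, haloperidol liver, placebo liver. Points are arrays sorted within their group and bars are mean ± SD: in brain 9 of 10 haloperidol arrays of Psme1 lie above every placebo array and 9 of 10 of Psme4 below, with 1R of Psme4 among the placebo arrays.

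Psmf1, the gene of the proteasome inhibitor PI31, changed by 0.02 in brain and did not pass (limma adjusted p = 0.82). Of the 4 chaperone genes that build the alpha ring, Psmg4 and Psmg2 were higher and Psmg1 and Psmg3 did not pass. Psmg4 was at 7.33, 7.91 and 8.38 in haloperidol brain and at 7.0, 7.22 and 7.49 in placebo brain, with all 10 haloperidol arrays above the placebo mean, and rose by 0.56 (SE 0.12, limma adjusted p = 0.0049). Psmg2 was at 8.12, 8.36 and 8.93 in haloperidol brain and at 7.89, 8.21 and 8.43 in placebo brain, and rose by 0.26 (SE 0.089, limma adjusted p = 0.030). Its call was lost in 6 of the 20 fits that left out 1 brain array, and without haloperidol 4N, 4T and placebo 1L (0.17, limma adjusted p = 0.12), and its change was -0.11 with the array median as a covariate (limma adjusted p = 0.92). Psmg1 changed by 0.03 and Psmg3 by 0.15.

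**Figure D4:**
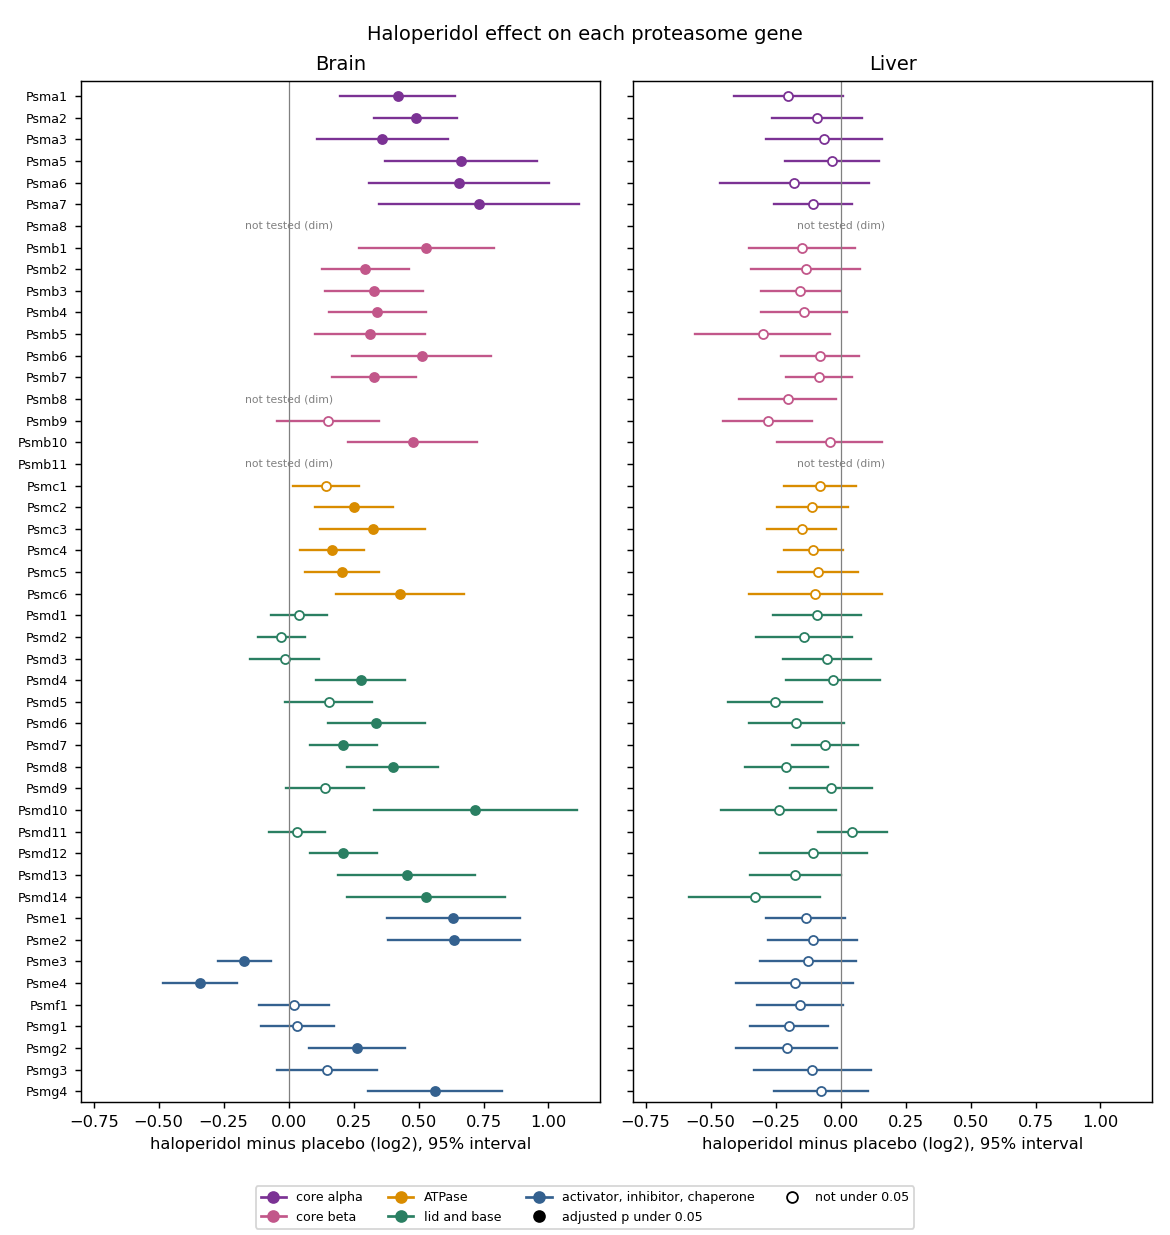
Change of each proteasome gene, haloperidol minus placebo (x axis, log2 units), in brain (left) and liver (right), with the gene classes running down the page in colour. Circles are limma estimates with 95% intervals, filled where the adjusted p is under 0.05: 33 of 44 are filled in brain and 0 of 45 in liver.

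Genes of the wider pathway were counted from lists, whose counts are to be read against the 15.2% of all brain genes called in each direction. Of 9 assembly and stability factors outside the Psm names, 4 were higher: Pomp, the maturation factor of the core, by 0.44, Txnl1, a thioredoxin bound to the regulatory particle, by 0.37, Uchl1, a neuronal ubiquitin hydrolase, by 0.30, and Sem1, a small lid subunit, by 0.26. Of 19 ubiquitin-conjugating enzymes, 7 were higher, among them Ube2n, which pairs with Ube2v1 or Ube2v2 to build ubiquitin chains, by 0.44 and Ube2d2a by 0.45. Of 9 genes of the Vcp unfoldase and its cofactors, 1 (11.1%) was higher (Nsfl1c, 0.17). Of 6 proteasome-associated receptors, shuttles and deubiquitinases, 0 passed limma's test and 0 had an unadjusted p under 0.05, as 44.0% of all brain genes did, and neither held for Uba6, the measured gene of ubiquitin and its activating enzymes. Of 6 regulators around Nfe2l1 and Nfe2l2, 1 passed, the partner gene Mafg, which fell by 0.23 on the log2 scale. Nfe2l1 changed by -0.11 and Nfe2l2 by 0.18 without passing (limma adjusted p = 0.19 and 0.12).

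In liver no proteasome gene passed. Of the 45 tested, 0 were called by limma at an adjusted p under 0.05, as were 0.0% of all 12547 genes tested in liver. At an unadjusted p under 0.05, 11 of the 45 were lower and 0 higher, where 6.76% of all genes were lower and 3.73% higher. The changes of 44 of the 45 genes were below 0, against 57.4% of all genes tested, and the median change was -0.13 against -0.02. The genes are not independent of each other, since they were read from the same 18 arrays. Psma8 and Psmb11 were below the liver limit of 3.92, with means of 3.62 and 3.91.

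The liver gene with the smallest p was Psmb9. It was at 7.09, 7.37 and 7.46 in haloperidol liver and at 7.41, 7.56 and 8.02 in placebo liver, with all 9 haloperidol arrays below the placebo mean. Its change was -0.28 (SE 0.082, limma adjusted p = 0.36). Psmb5 was at 10.12, 10.96 and 11.30 in haloperidol liver and at 10.87, 11.16 and 11.44 in placebo liver, a change of -0.30 (SE 0.12, limma adjusted p = 0.42), and 4N was its lowest array. Psmd14 changed by -0.33 (SE 0.12), Psmd5 by -0.25 (SE 0.086) and Psmg1 by -0.20 (SE 0.072), and the groups of each overlapped. Psmb8, bright enough to test in liver, was at 6.98, 7.27 and 7.58 in haloperidol liver and at 7.14, 7.46 and 7.73 in placebo liver, a change of -0.20 (SE 0.090, limma adjusted p = 0.45). Psmb10 changed by -0.04 in liver. The activators Psme1, Psme2, Psme3 and Psme4 changed by -0.13, -0.11, -0.13 and -0.18, and Psmd11, at 0.05, was the gene above 0.

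Across liver arrays, the mean deviation of the 45 genes ranged between -0.28 and 0.06 with haloperidol, with a median of -0.14, and between -0.07 and 0.11 with placebo, with a median of -0.02. The lowest haloperidol arrays were 4N, 2T, 3B and 3R, and 4L was the highest. Of 9 Kupffer cell markers, 0 passed in liver, while 6 were lower at an unadjusted p under 0.05, as were 6.76% of all liver genes. The median change over the list was -0.30, and its genes Csf1r, C1qa, C1qb and C1qc are also on the microglial list. The part of Kupffer cells in the liver values was not tested.

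**Figure D5:**
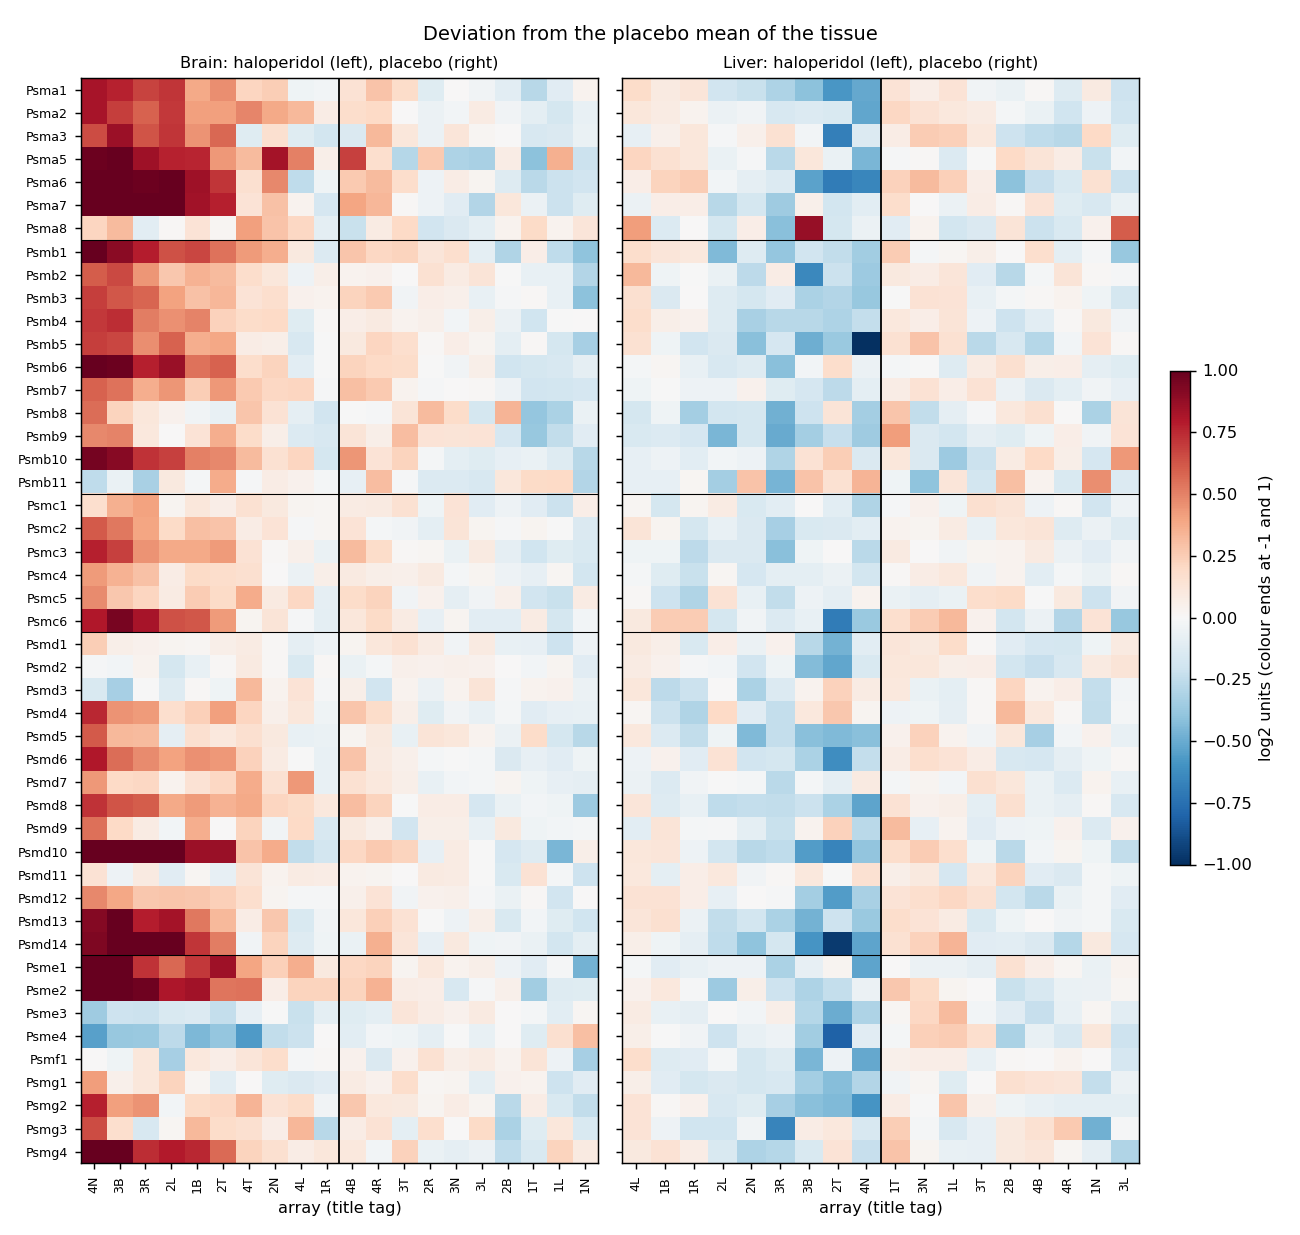
Deviation of each proteasome gene (rows, in class order) from the placebo mean of the tissue on each array (columns, haloperidol left of placebo, sorted by mean deviation within a group), in log2 units with the colour ending at -1 and 1. In brain most rows of haloperidol arrays 4N, 3B, 3R, 2L, 1B and 2T are raised and the rows of Psme3 and Psme4 lowered, while the mean deviations of 4L and 1R, 0.03 and -0.03, lie within the placebo range.

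The haloperidol effect differed between the tissues for most of these genes. The contrast of the liver effect minus the brain effect was below 0 and passed for 31 of the 44 genes tested in both tissues, and 0 passed above 0 (limma, adjusted p under 0.05). Over all 10869 genes so tested, 13.9% passed below 0 and 9.16% above 0. The median contrast was -0.45 for the 44 genes and -0.01 over all. With the array median as a covariate, 0 of the 44 and 0 of all genes passed, and the median contrast of the 44 was -0.17. Without the arrays tagged 4N and 4T of haloperidol and 1L of placebo, 21 of the 44 passed, and 2 of 6 ATPase genes, 5 of 14 lid and base genes and 0 of the 2 immunoproteasome genes were among them, against 5, 8 and 2 with all arrays.

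The contrast passed for 5 of 6 alpha genes, all 9 beta genes, 5 of 6 ATPase genes, 8 of 14 lid and base genes and 4 of the 9 other genes. It was largest for Psmd10, at -0.96 (SE 0.23, limma adjusted p = 0.0041), a gene at 7.05, 7.46 and 7.84 in haloperidol liver and at 7.45, 7.69 and 7.97 in placebo liver. For Psme1 and Psme2 it was -0.77 and -0.74, and for Psmb5 it was -0.61. Every gene whose contrast passed had a liver change below 0 and a brain change above 0, and no liver change passed. Psmb9, which passed in neither tissue, differed between them by -0.43 (SE 0.13, limma adjusted p = 0.014). The 2 activators that fell in brain did not differ between tissues beyond their error: the contrast of Psme3 was 0.04 (95% interval -0.15 to 0.24) and that of Psme4 was 0.16 (95% interval -0.09 to 0.42).

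Other probes of a gene gave similar brain changes. More than 1 probe with a single symbol was present for 6 genes. The 3 probes of Psma3 differed between treatments by 0.36, 0.36 and 0.37, and those of Psma5 by 0.66 and 0.61. The probes of Psmb1 differed by 0.53 and 0.40, those of Psmb3 by 0.33 and 0.36, those of Psmc1 by 0.14 and 0.12, and those of Psmd2 by -0.03 and -0.07. Gene length was compared as well. Spearman's rho between a gene's genomic span and its brain change was -0.19 over the 44 genes and -0.27 over 12538 genes with a position, and Pearson's r with the log10 span was -0.27 and -0.20. In liver, rho was 0.10 over 45 genes and 0.15 over 12540, and r was 0.05 and 0.10. The genes share the same arrays, so these are descriptions.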

How the data were processed

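The authors deposited log2 values. The submitters' processing notes name RMA and Affymetrix Expression Console, without versions. RMA corrects background, gives arrays a common distribution and summarises probe sets, so a change of total RNA is not visible. The array model is not given in the sources used here. Sorted values of any array lay within 0.23 of the mean distribution of its tissue, while the tissue means differed by up to 1.42. No signal over background was used, and the number of arrays limits the precision.

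Of 35556 probes, 21218 had 1 gene symbol in the platform annotation, which can be old, 1881 had several and 12457 were unnamed here, and 21185 of those with 1 symbol matched RefSeq. The dimmest 33.3% of genes, by their mean in the tissue, were left out. Haloperidol was compared with placebo by lmFit and eBayes of limma 3.58.1 (R 4.3.3), two-sided, with Benjamini-Hochberg adjustment over all genes tested in the tissue. The contrast between tissues used 1 fit of all 38 arrays. The same fits were also run on simulated data with independent noise for each gene and array, without shifts shared across an array. No arrays of a group were identical (correlations of 0.964 to 0.992). Whether arrays of a group came from separate mice is taken from the series' design text, and p-values measure the spread between these arrays.

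The members, lists, tests and arrays singled out were chosen with earlier results of these data known. Genes given in full were the catalytic genes Psmb5 to Psmb10, Psme1 to Psme4, and in each class the 3 smallest unadjusted p in brain, the 2 in liver and the 1 in the contrast. Psma8, Psmb11, Psmd1, Psmd2, Psmd14, Psmg4 and the values of other members, Nfe2l1, Nfe2l2, Tap1 and B2m were added after values were seen. Up to 4 passing members of each pathway list were named. Alternatives covered the filter, the normalization, the array median, the variance model, array weights, the probes, the title tags, the arrays in the fit and leaving out arrays.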

Additional observations from a re-analysis of the deposited data

Results flagged for a closer look

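Of 100 groups of array values (25 genes given in full, 4 groups each) 4 held a value far from the rest of its group by Dixon's test, which chance does for about 1 in 20 groups. They were Psma2 at 8.26 in haloperidol liver 4N, Psme4 at 8.76 in haloperidol liver 2T, Psme1 at 7.47 in placebo brain 1N and Psmg2 at 7.57 in placebo liver 1L.

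The haloperidol effect differed between liver and brain, by the contrast of liver minus brain in limma at an adjusted p under 0.05, for 21 of those genes. Those genes were partly chosen by their p in each tissue and in this same contrast, so the count is raised by that choice. Over all 10869 genes so tested, 13.9% passed below 0 and 9.16% above 0. The contrasts were -0.62 for Psma1, -0.58 for Psma2, -0.70 for Psma5 and -0.84 for Psma7 among the alpha genes. Among the beta genes they were -0.68 for Psmb1, -0.61 for Psmb5, -0.59 for Psmb6, -0.41 for Psmb7, -0.43 for Psmb9 and -0.52 for Psmb10. The ATPase genes had -0.36 for Psmc2, -0.47 for Psmc3, -0.27 for Psmc4 and -0.53 for Psmc6. The lid and base genes had -0.41 for Psmd5, -0.51 for Psmd6, -0.61 for Psmd8 and -0.96 for Psmd10. The remaining contrasts were -0.77 for Psme1, -0.74 for Psme2 and -0.47 for Psmg2. With the array median as a covariate, none of the contrasts of the 44 genes passed limma's test, and 4 of them had an unadjusted p under 0.05.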

How the results depend on the processing

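With the array median as a covariate, limma called 0 proteasome genes in brain and 0 in the contrast between tissues, against 33 and 31, and the brain change of Psmg2 turned to -0.11 (limma adjusted p = 0.919). Array medians and treatment went largely together in brain, so this fit can hardly separate them, and the cause was not tested. Every other alternative kept the brain and contrast counts within 1.5 times: brain counts were 38 with array medians subtracted, 33 with quantile normalization and 25 without haloperidol 4N, 4T and placebo 1L, and 28 to 33 when each array was left out in turn, where the contrast counts were 29 to 34. Liver counts were 0 under every alternative run. Subtracting array medians moved the median change of all genes to 0.12 in brain and to -0.11 in liver. There are 18 title tags that occur in both brain and liver, with no explanation in the labels. The tag as a fixed replicate block gave 25 contrasts, in a fit that also left out haloperidol brain 4T and placebo brain 2R, whose tags are not shared. With duplicateCorrelation on all 38 arrays it gave 31 (consensus correlation -0.0335). Each shared tag carried the same treatment in both tissues. The correlations of deviations of same-tag arrays ran between -0.318 and 0.249, which cannot decide whether a tag marks the same mouse. The main contrast took the arrays as independent.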

Other observations

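For the 9 haloperidol tags that occur in both tissues, the mean deviation of the proteasome genes from the placebo mean of the tissue can be set side by side. It was -0.28 in liver and 0.64 in brain for 4N, -0.25 in liver and 0.31 in brain for 2T, and -0.21 in liver and 0.57 in brain for 3B. For 3R it was -0.21 in liver and 0.46 in brain, for 2N -0.14 in liver and 0.15 in brain (0.145), and for 2L -0.10 in liver and 0.38 in brain. For 1R it was -0.06 in liver and -0.03 in brain, for 1B -0.01 in liver and 0.36 in brain (0.355), and for 4L 0.06 in liver and 0.03 in brain. The labels do not say whether a tag marks 1 mouse, and no relation between the tissues was tested.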
